A study of Mus musculus with 4 samples.

Results

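The genes examined were 9 interferon-gamma induced GTPases and regulators: the transcription factor Irf1, the guanylate-binding proteins Gbp2, Gbp3, Gbp5 and Gbp7, and the immunity-related GTPases Irgm1, Irgm2, Igtp and Iigp1. They were chosen by gene symbol from the 53647 genes of the count tables, and each symbol matched 1 row. Their unique molecular identifiers (UMIs, each standing for 1 captured transcript molecule) were counted in 4 droplet-based single-cell libraries of spinal cord from aged C57BL/6J mice, an inbred strain, 28 days after spinal cord injury. The groups were IgG, a control antibody, and Anti-CD8, an antibody to CD8, which marks cytotoxic T cells; each group had 2 libraries. All mice were injured and aged, so neither age nor injury was compared, and each group was defined by its antibody alone. Per the labels, the tissue was a short segment around the lesion, dissociated with an enzymatic kit and cleared of myelin with beads, so the cells are those that survived dissociation. How many mice went into a library is not given in the sources used here, and p-values therefore cover library-to-library spread only, which may be technical.

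Interferon-gamma is made mainly by T cells and natural killer (NK) cells, and its receptor, built from Ifngr1 and Ifngr2, signals through the kinases Jak1 and Jak2. Many of its target genes carry gamma-activated sites, and among the early targets is Irf1, which in turn binds interferon-stimulated response elements. Guanylate-binding proteins and immunity-related GTPases are induced in this way in immune and non-immune cells and act on the membranes of vacuoles that hold pathogens. Among the immunity-related GTPases, Iigp1 is an effector that loads onto such membranes, while Irgm1, Irgm2 and Igtp (also called Irgm3) are regulators that hold the effectors inactive on the cell's own membranes. Type I interferons induce several of the same genes.

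Sequences from the promoters are shown because they are where the letters of both kinds of binding site were searched. RefSeq promoter windows (build GRCm38.p6, 300 bases, 250 before to 50 after the start of transcription) were in the table for 8 of the 9 members; Iigp1 is not in it. Each window was searched on both strands for GAAA, any 2 bases and GAAA again, the core of the interferon-stimulated response element, and for TTCNNNGAA, the core of the gamma-activated site. Capitals mark the matched letters, on the gene's own strand and 5′ to 3′.
Irf1, chr11:53769909-53769947, plus strand: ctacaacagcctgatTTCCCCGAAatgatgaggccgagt
Gbp2, chr3:142620589-142620628, plus strand: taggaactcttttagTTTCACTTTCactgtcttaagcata
Gbp3, chr3:142559984-142560029, plus strand: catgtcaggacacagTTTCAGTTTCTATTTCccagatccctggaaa
Gbp7, chr3:142530215-142530307, plus strand: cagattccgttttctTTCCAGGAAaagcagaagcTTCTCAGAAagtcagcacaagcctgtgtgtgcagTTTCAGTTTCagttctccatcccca
Irgm1, chr11:48871420-48871465, minus strand: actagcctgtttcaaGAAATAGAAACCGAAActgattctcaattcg
Irgm2, chr11:58214887-58214937, plus strand: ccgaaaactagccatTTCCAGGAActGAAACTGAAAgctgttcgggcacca
Igtp, chr11:58199496-58199546, plus strand: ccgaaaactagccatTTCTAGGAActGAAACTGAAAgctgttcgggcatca

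The response-element core was found in the windows of 7 of the 8 members, all but Irf1, and in 3.99% of the 27025 genes of the table. The activated-site core was found in 5 of the 8 (Irf1, Gbp5, Gbp7, Irgm2 and Igtp) and in 9.55% of all genes. Gbp3 and Irgm1 each held 2 response-element matches that overlap each other, while no match of one core overlapped a match of the other in the printed stretches. The windows of Irgm2 and Igtp, neighbours on chromosome 11, were 93.6% identical over 264 aligned bases. A match is a description of letters and does not show binding. Where such close relatives share sequence in the transcript as well, reads that fit both may be split or dropped by the counting, so single values of family members carry that uncertainty.

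The libraries held 152457679 to 170539226 UMIs each, and 6108 to 7816 cells per library were kept, with median depths from 17284.0 to 21950.5 UMIs per cell. Anti-CD8 libraries had more cells and a lower median depth than IgG libraries. Any pair of libraries shared 7 to 23 cell barcodes, at most 0.35% of a library. Cells were placed in 29 clusters, and plain cell type names stand for likeness to a cell type by its markers. The split of microglia from Spp1-high myeloid cells was graded. Some clusters named microglia had another marker list raised more than the microglia markers. The members and other interferon-inducible GTPases were left out of the genes used for clustering. Classes with at least 20 cells in each library were compared, which gave 8: microglia, Spp1-high myeloid cells (with Spp1, Gpnmb, Lpl, Fabp5 and Itgax at a sum of 16200 to 19440 CPM, against 4230 to 5129 CPM in microglia), monocytes and macrophages, T cells, endothelial cells, pericytes with smooth muscle cells, ependymal cells and neurons. CD8 transcripts checked the treatment: Cd8b1 in T cells was lower in both Anti-CD8 libraries (281 and 167) than in IgG (696 and 501). These levels are CPM, the UMIs of a gene scaled to a common total of all UMIs of the class in a library. IgG replicate 1 stood apart, with 14.53% of its microglia in a cluster led by Ifit2, Ifit3 and Oasl1, genes of the interferon response, against 3.05%, 1.88% and 3.49% in IgG replicate 2 and Anti-CD8 replicates 1 and 2.

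Endothelial cells, which line the vessels, held the highest summed level of the 9 genes, 852 ± 132 CPM (SD over 4 libraries), followed by pericytes with smooth muscle at 675 ± 95.3 CPM, and the ranges of these classes overlapped. T cells followed at 357 ± 82.6 CPM and ependymal cells, which line the central canal, at 293.4 ± 38.55 CPM, with ranges that also overlapped. Neurons were lowest, at 34.3 ± 14.2 CPM, so the summed level was 24.8 times as high in endothelial cells as in neurons. Levels across classes are CPM of the class total without further scaling, and each gene is compared with itself only.

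**Figure D1:**
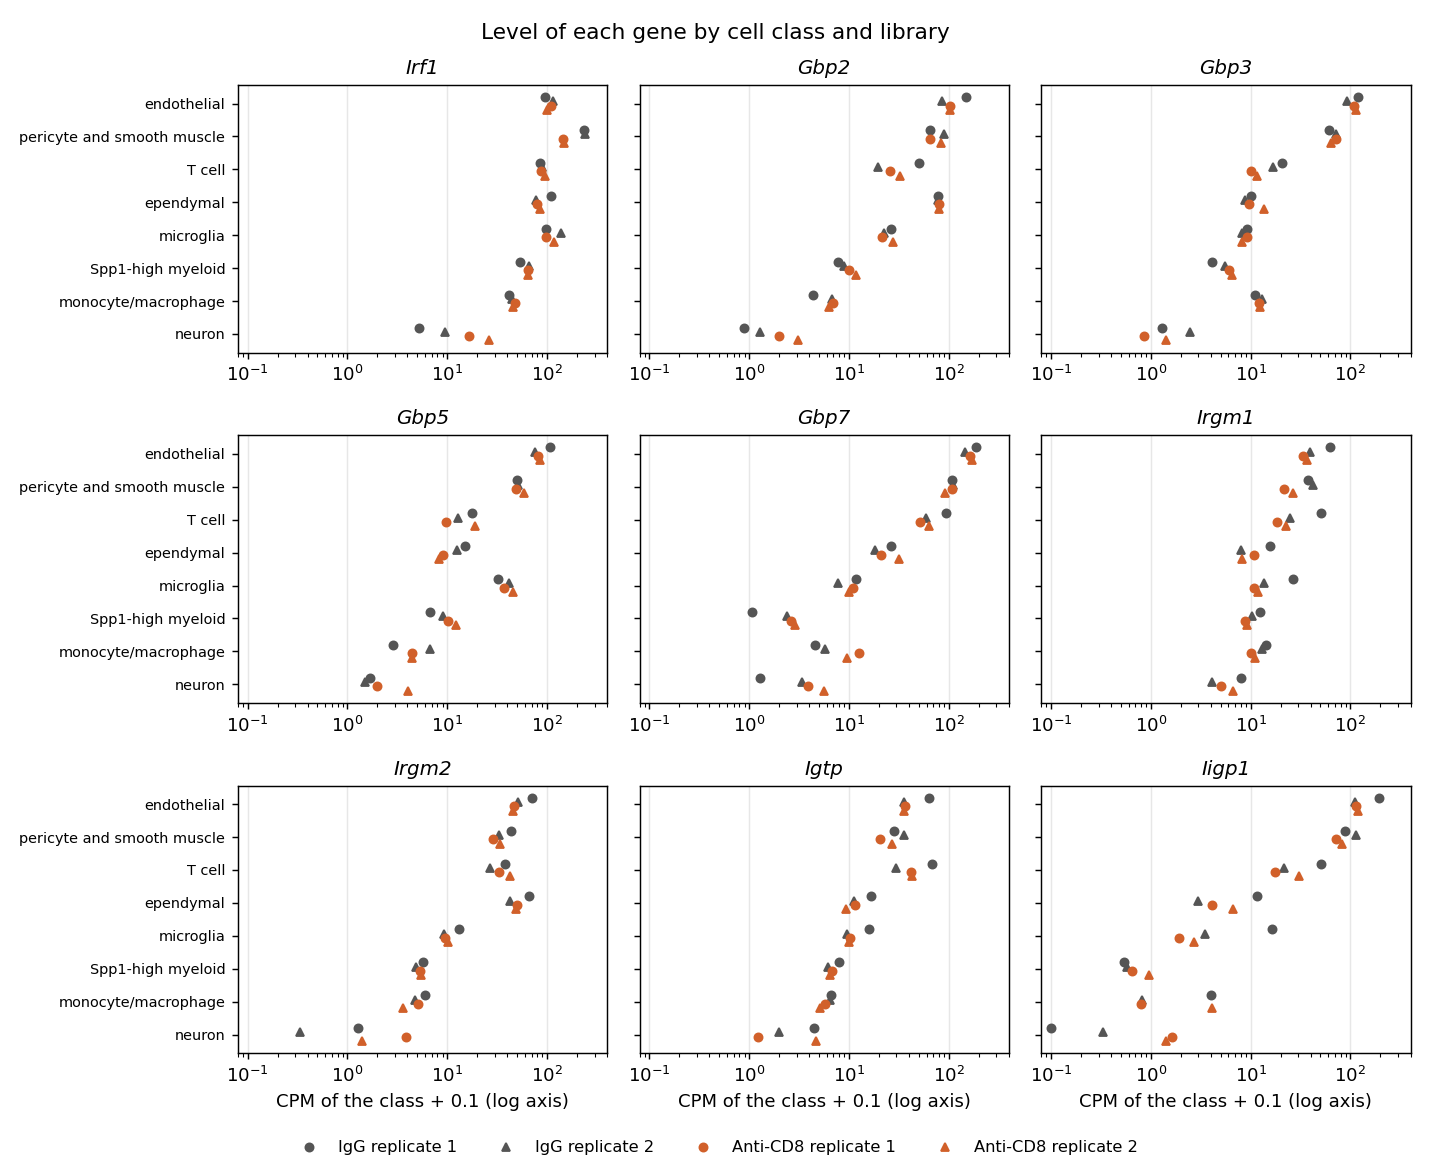
Level of each of the 9 genes (CPM plus 0.1, log axis) in 8 cell classes, 1 point per library, grey for IgG and orange for Anti-CD8. Gbp2, Gbp3, Gbp5, Gbp7, Irgm1, Irgm2 and Iigp1 had their highest mean in endothelial cells, Irf1 in pericytes with smooth muscle and Igtp in T cells.

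For 7 of the 9 members the mean was highest in endothelial cells. Gbp3 averaged 109 CPM in endothelial cells, 66.8 CPM in pericytes with smooth muscle and 14.7 CPM in T cells, with no overlap between the first 2 ranges or between the latter and T cells. Gbp7 and Gbp5 followed the same order at the top, at 167 and 104.9 CPM for Gbp7 and 86.8 and 52.4 CPM for Gbp5. Gbp5 differed from its relatives in microglia, which came next at 39.1 CPM, above T cells at 14.7 CPM without overlap. Gbp2 was 110.5 CPM in endothelial cells and then 78.9 CPM in ependymal cells, while Gbp3 in ependymal cells was at 10.4 CPM.

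The immunity-related GTPases spread less evenly. Iigp1, the effector, averaged 134.6 CPM in endothelial cells, 88.8 CPM in pericytes with smooth muscle and 30.0 CPM in T cells, against 0.58 CPM in Spp1-high myeloid cells, its lowest class, which is 232 times lower than in endothelial cells. Irgm1 varied over the smallest range of all 9 genes, from 42.8 CPM in endothelial cells to 5.85 CPM in neurons, and each of its first 4 classes overlapped the next. Irgm2 was 53.4 CPM in endothelial cells and 52.0 CPM in ependymal cells, which did not differ beyond their spread. Igtp was 45.4 CPM in T cells and 42.7 CPM in endothelial cells, which overlapped too. The transcription factor Irf1 was highest in pericytes with smooth muscle at 192 CPM, above microglia at 113 CPM and endothelial cells at 105 CPM, which overlapped each other.

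Pericytes with smooth muscle were not 1 kind of cell, and the members differed among its clusters. Cluster 25, led by the smooth muscle genes Tagln, Acta2 and Myh11, held Irf1 at 1038, 916, 630 and 929 CPM in the order IgG replicates 1 and 2, then Anti-CD8 replicates 1 and 2, an order kept for every run of 4 values here. In the same cluster Iigp1 was at 0, 6.83, 0 and 0 CPM and Irgm1 at 7.01, 2.28, 4.71 and 11.1 CPM. Cluster 18, led by the pericyte genes Rgs5, Vtn and Abcc9, held Irf1 at 83.2, 131, 75.6 and 63.8 CPM and Iigp1 at 106, 146, 88.0 and 91.0 CPM. This cluster also carried the 8 endothelial markers at a sum of 12020 to 12870 CPM, against 79.5 to 1176 CPM in cluster 25 and 16840 to 17620 CPM in endothelial cells themselves. The part of endothelial RNA in the GTPase levels of the pericytes was not tested.

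Shares of cells with a UMI were compared after each cell was thinned to 2000 UMIs, since depth differed. At least 1 member UMI was found in 72.1% ± 3.84 of endothelial cells in IgG and 72.6% ± 1.01 in Anti-CD8 (SD, n = 2 libraries). The share was 32.8% ± 0.853 and 32.6% ± 2.98 of microglia, 47.6% ± 7.28 and 43.5% ± 2.27 of T cells, and 3.93% ± 2.35 and 6.84% ± 0.0827 of neurons. Neurons were the class with the fewest such cells, at a median depth of 17618.0 to 24099.0 UMIs before thinning. Free RNA was not measured, and its part in these shares was not tested. Endothelial cells were read at 13755.0 to 17821.0 UMIs. Unthinned, 98.4% and 97.9% of endothelial cells and 30.1% and 33.7% of neurons in IgG and Anti-CD8 had a member UMI. With 2 libraries against 2, the two-sided exact permutation test cannot go below p = 0.33, so whether these shares differ between the groups could not be tested at 0.05.

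The 10 other genes whose level over the 32 points of class and library was most like the mean of the members included 3 of the interferon response. These were Ddx58, which encodes the RNA sensor RIG-I, at a Pearson r of 0.947, Rsad2, an antiviral enzyme, at 0.945, and Gbp9, another guanylate-binding protein, at 0.936. The remaining 7 were Sp3, Nedd1, Tacc1, Gbe1, Rbms2, Tpm4 and Btg3, at 0.936 to 0.949. The points share libraries and classes, and 17323 genes were ranked, so this is a description. Among the members, Iigp1 (0.949) and Gbp7 (0.947) followed the mean most closely and Irf1 (0.827) least. Each member is itself part of that mean, so this order is a description only.

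Whether these genes, which respond to interferon-gamma, differed once the CD8 antibody had been given was tested on UMIs summed per class and library (edgeR, quasi-likelihood), with p-values adjusted over all genes of a class by the Benjamini-Hochberg method. Levels below are CPM after TMM scaling (which corrects for the makeup of each library), and fold changes are log2 of Anti-CD8 over IgG. No member passed an adjusted p of 0.05 in any of the 8 classes or in all cells together, where 0% of the 23675 genes tested passed and Irgm1 alone was under an unadjusted p of 0.05, against 4.21% of genes. By class, the share of all genes that passed was 0.0255% in Spp1-high myeloid cells, 1.43% in T cells, 0% in endothelial cells, 0.00701% in ependymal cells, 0.0382% in microglia, 0.00809% in monocytes and macrophages, 0.365% in neurons and 0.00807% in pericytes with smooth muscle. The test was run on 67 of 72 pairs of class and member, since Gbp2, Gbp3, Gbp5, Irgm2 and Iigp1 were too low in neurons, at 0 to 12 UMIs per library. Over the 8 classes together, 0.191% of 111196 gene tests passed. At an unadjusted p under 0.05 there were 18 of the 67 pairs, against 6.97% of all gene tests, a share that the classes do not give independently since they come from the same 4 libraries.

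**Figure D2:**
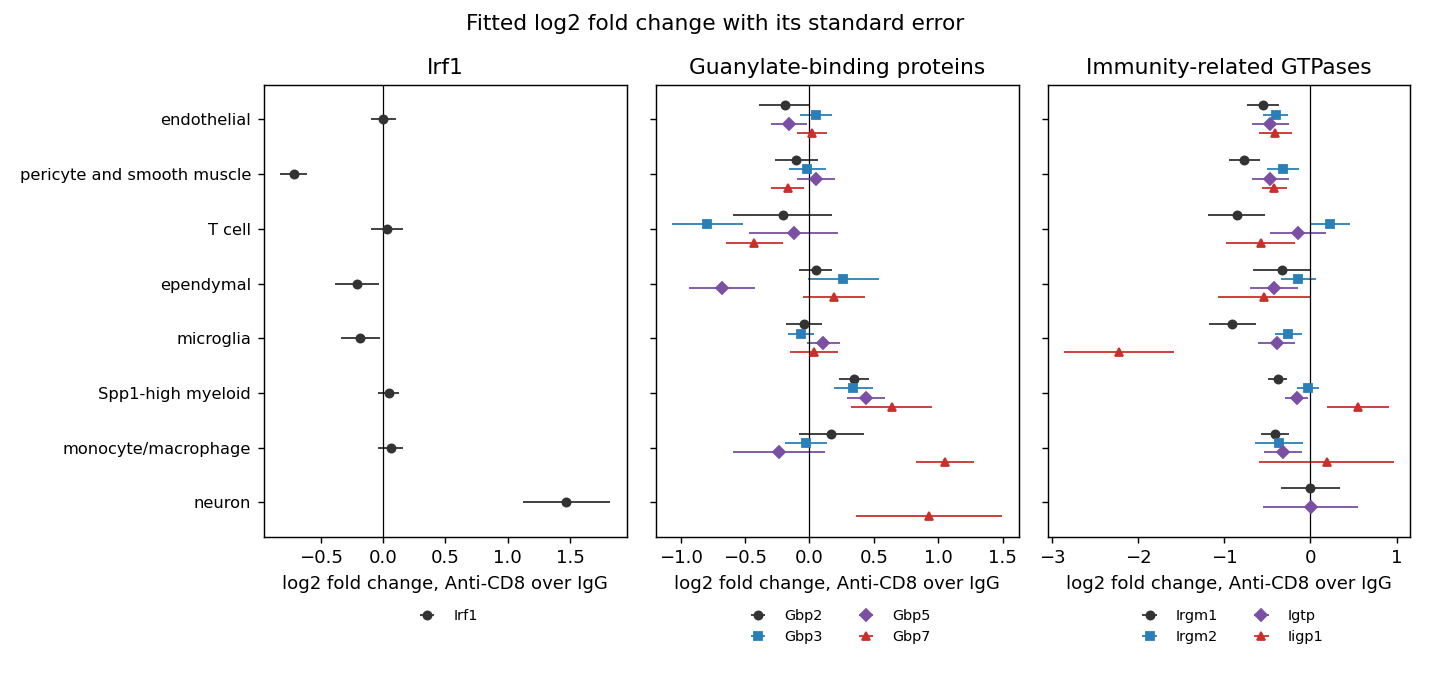
Fitted log2 fold change of Anti-CD8 over IgG, with its standard error, for each tested member in 8 cell classes; points left of 0 are lower in Anti-CD8. The immunity-related GTPases lay below 0 in 25 of 30 tests and the guanylate-binding proteins in 14 of 29, and none of these passed the adjusted threshold.

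Direction was counted by family. Fitted changes of the 4 immunity-related GTPases were below 0 in 25 of 30 tests over the classes, those of the 4 guanylate-binding proteins in 14 of 29 and those of Irf1 in 3 of 8. The groups did not overlap and Anti-CD8 was lower in 12 of 30 tests of immunity-related GTPases, against 18.3% of all gene tests, and higher in 1, against 17.9%. For guanylate-binding proteins the counts were 3 of 29 below and 6 of 29 above. IgG replicate 1 was the highest of the 4 libraries in 24 of the 30 tests of immunity-related GTPases (80.0%), while it was highest in 26.8% of all gene tests and in 34.5% of those of guanylate-binding proteins. Without this library, 14 of the 31 changes that could then be tested were below 0.

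**Figure D3:**
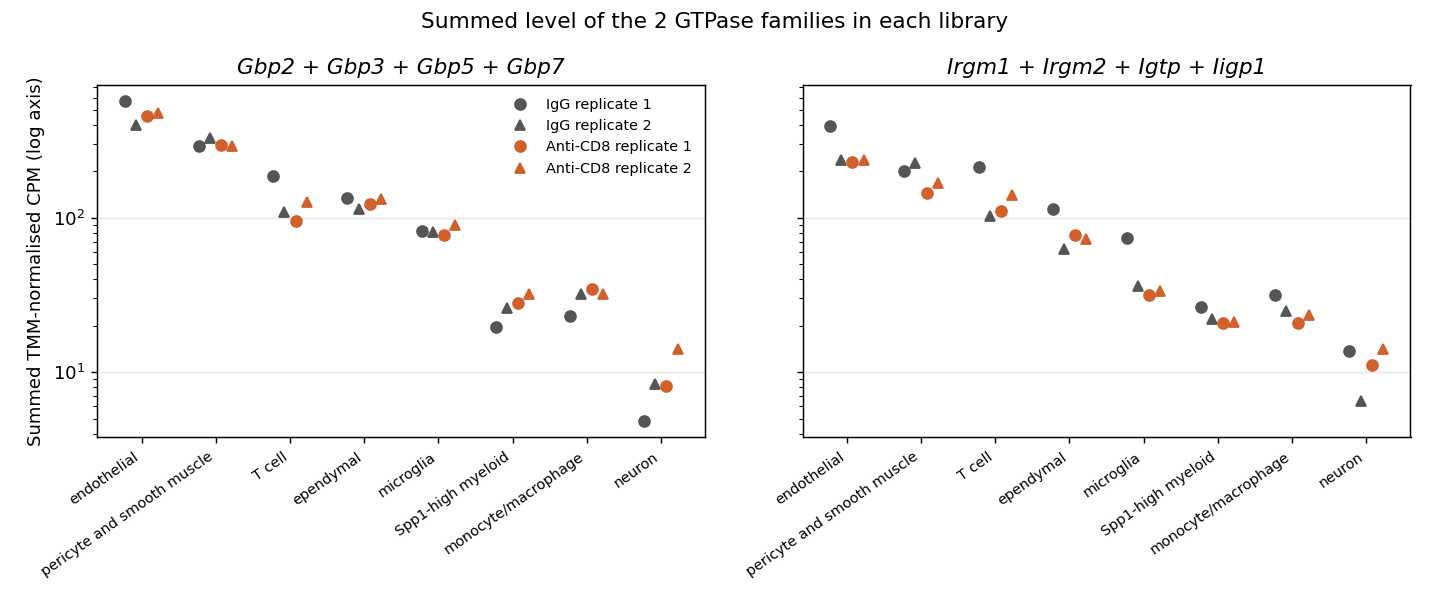
Summed level of the 4 guanylate-binding proteins (left) and the 4 immunity-related GTPases (right) in each library and class (TMM-normalised CPM, log axis). On the right, IgG replicate 1 is the highest point in endothelial cells (395 CPM), T cells (213 CPM), ependymal cells (114 CPM) and microglia (73.7 CPM), and in pericytes with smooth muscle the IgG points (201 and 228 CPM) lie above those of Anti-CD8 (144 and 167 CPM).

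Irgm1, a regulator of the effector GTPases, had the most regular pattern over the classes, which come from the same 4 libraries. Anti-CD8 was lower without overlap in 6 of 8 classes, against 18.3% of all gene tests. Irgm1 was below 0 in 7 of the 8 and highest in IgG replicate 1 in 7. In all cells together it was 24.5, 14.6, 11.5 and 12.4 CPM, a log2 change of -0.71 (SE 0.24, adjusted p = 0.989), lower without overlap, against 15.7% of genes, and no member was higher without overlap, against 16.8%. In T cells it was 51.9, 25.1, 18.2 and 22.8 CPM, a change of -0.86 (SE 0.33, adjusted p = 0.318). In each case IgG replicate 1 stood well above the other 3 libraries, which lay close together. Without it the change was -0.29 in all cells (adjusted p = 0.882) and -0.31 in T cells (adjusted p = 0.903). In T cells it was -1.35 without IgG replicate 2. There it passed under 2 of 11 alternatives, 1 of them without a filter on low counts (adjusted p = 0.0073). In Spp1-high myeloid cells Irgm1 was 12.4, 10.45, 8.60 and 8.94 CPM (-0.38, SE 0.11, adjusted p = 0.4345) and in monocytes and macrophages 14.6, 13.1, 9.78 and 10.9 CPM (-0.41, SE 0.16, adjusted p = 0.948), where both IgG libraries were of similar height.

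In endothelial cells the 4 immunity-related GTPases were all below 0, at -0.41 to -0.55, beside a median of -0.19 for the 9 members and 0 for all 13920 genes tested. Irgm1 was 63.0, 39.25, 33.3 and 36.75 CPM (-0.55, SE 0.19, adjusted p = 0.958). Irgm2 was 71.6, 50.8, 47.1 and 45.1 CPM (-0.41, SE 0.15, adjusted p = 0.9996). These 2 members did not overlap between groups, where 16.4% of all genes were lower without overlap and another 16.4% higher. Igtp was 64.4, 35.5, 36.6 and 35.4 CPM (-0.47, SE 0.22) and Iigp1 196, 112, 114 and 118 CPM (-0.41, SE 0.20). For both of them IgG replicate 2 was level with the Anti-CD8 libraries. Without IgG replicate 1 the changes became -0.17 for Irgm1, -0.14 for Irgm2, 0.02 for Igtp and 0.05 for Iigp1. Without IgG replicate 2 they were -0.85, -0.63, -0.84 and -0.76 in the same order.

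The guanylate-binding proteins of endothelial cells did not separate the groups. Gbp2 was 152, 85.45, 103 and 104 CPM (-0.19, SE 0.20) and Gbp3 122, 92.4, 108 and 114 CPM (0.05, SE 0.12). Gbp5 was 108, 76.1, 80.6 and 84.3 CPM (-0.16, SE 0.14) and Gbp7 189, 144, 165 and 173 CPM (0.02, SE 0.12). In all 4 the IgG libraries were the highest and the lowest of the set, with both Anti-CD8 libraries between them. In the order above, their changes were -0.55, -0.14, -0.39 and -0.16 without IgG replicate 2. Without IgG replicate 1 they were 0.28, 0.27, 0.11 and 0.23. Irf1 was 97.4, 114, 111 and 101 CPM (0.003, SE 0.10), with full overlap.

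In microglia, the macrophages that reside in nervous tissue, the largest fitted change was that of Iigp1, at 16.8, 3.44, 1.78 and 2.56 CPM (-2.22, SE 0.64, adjusted p = 0.465). Irgm1 was 27.3, 13.9, 10.5 and 11.5 CPM (-0.91, SE 0.27, adjusted p = 0.476). These were the 2 of 9 members lower without overlap, against 21.5% of all 18340 genes tested, and 0 were higher without overlap, against 20.2%. Without IgG replicate 1 they were -0.66 and -0.34, and without IgG replicate 2 they were -2.95 and -1.31. Irgm2 was 13.3, 9.35, 9.17 and 9.83 CPM (-0.26, SE 0.16) and Igtp 16.2, 9.64, 10.0 and 9.72 CPM (-0.39, SE 0.21), with IgG replicate 1 alone above the rest. Without that library these became 0.02 and 0.03.

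The other microglial members overlapped between groups. Gbp2 was 27.0, 22.6, 20.8 and 27.4 CPM (-0.04, SE 0.14), Gbp3 9.41, 8.33, 8.88 and 8.06 CPM (-0.07, SE 0.10) and Gbp7 12.1, 7.83, 10.7 and 9.72 CPM (0.04, SE 0.18). Gbp5 was 33.0, 42.2, 36.6 and 44.4 CPM (0.11, SE 0.13), where replicate 2 was the higher library of each group. Irf1 showed the same order, at 99.7, 140, 95.7 and 116 CPM (-0.18, SE 0.16).

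The microglial cluster with the interferon genes held most Iigp1 UMIs of microglia in every library, and smaller parts of the other members. In IgG replicate 1 it had 487 of 3351 microglia and 35.2% of the UMIs of the 9 members, from 17.3% for Irf1 and 23.1% for Gbp5 to 50.5% for Irgm1, 60.1% for Gbp7 and 93.1% for Iigp1. In the other 3 libraries it had 68 to 136 cells, 53.8% to 74.6% of the Iigp1 UMIs, and 5.7%, 4.0% and 7.1% of those of all 9 members. Iigp1 within the cluster was 112, 69.6, 77.0 and 38.5 CPM, against 1.32, 1.44, 0.47 and 1.25 CPM in the remaining microglia, which is 30.9 to 164 times as high. The ratio was 4.25 to 6.43 for Irgm1, 3.29 to 9.53 for Gbp7, 2.07 to 5.28 for Gbp2 and 1.61 to 2.27 for Gbp5. Irf1 was hardly different inside the cluster, with a ratio of 0.93 to 1.32. The cluster was chosen by its type I interferon genes from these same cells, so these ratios are a description.

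**Figure D4:**
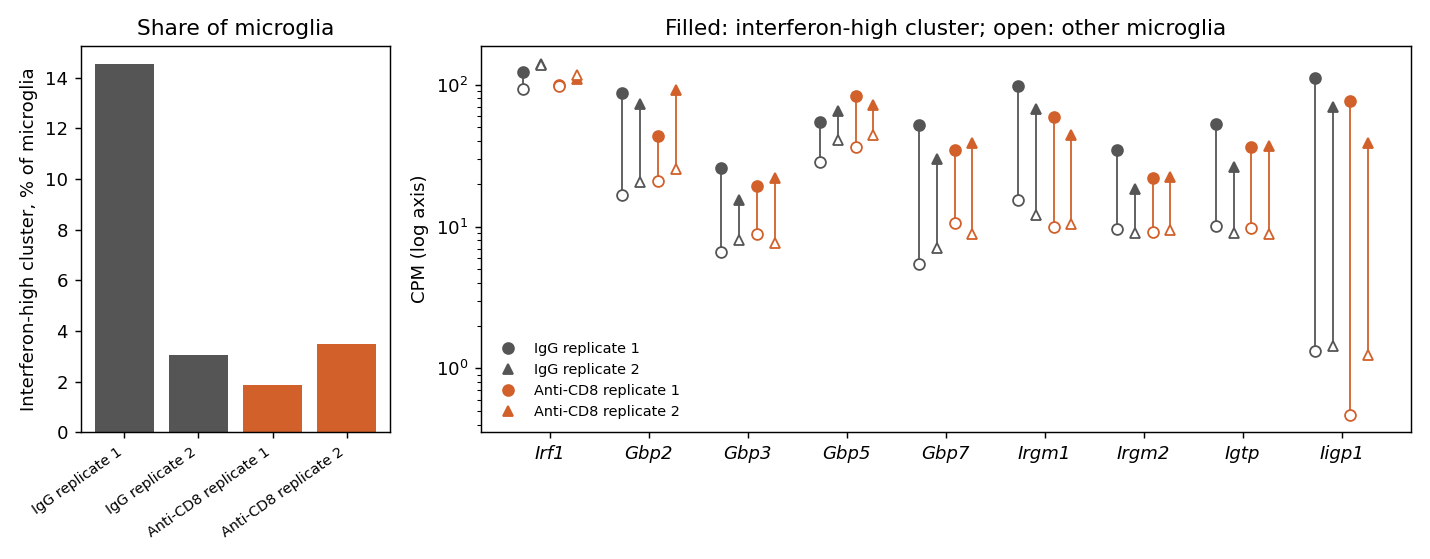
Left, the share of microglia in the interferon-high cluster in each library (14.53%, 3.05%, 1.88% and 3.49%); right, the level of each gene (CPM, log axis) in that cluster (filled) and in the remaining microglia (open). The filled and open points lie farthest apart for Iigp1 and almost together for Irf1.

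Without that cluster the microglial change of Iigp1 was -0.71 (adjusted p = 0.55) and that of Irgm1 -0.48 (adjusted p = 0.238). Irgm1 in the remaining microglia was 15.3, 12.1, 9.87 and 10.4 CPM, and the groups still did not overlap. The 13 T-cell markers moved with this result: their sum in microglia was 21.8 and 26.3 CPM in IgG and 13.2 and 15.6 CPM in Anti-CD8, with 12 of the 13 lower in both Anti-CD8 libraries and none at 0. Their part in the microglial changes was not tested.

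In pericytes with smooth muscle 6 of 9 members had both Anti-CD8 libraries below both IgG libraries, against 16.3% of all 12392 genes tested, and 0 were higher, against 16.4%; the median change of the 9 was -0.32 beside 0.003 for all genes. Irf1 was 239, 243, 146 and 147 CPM, a change of -0.72 (SE 0.11, adjusted p = 0.103). The gap between the groups was wide beside the distance between the 2 libraries of a group. Irf1 was highest in cluster 25, which held only 25, 28, 29 and 17 cells, and within that cluster the groups overlapped. Irgm1 was 38.35, 43.0, 21.8 and 26.1 CPM (-0.77, SE 0.18, adjusted p = 0.573). Without IgG replicate 1 the changes were -0.73 for Irf1 and -0.85 for Irgm1. With the replicate number as a block both passed, Irf1 at an adjusted p of 2.03e-05 and Irgm1 at 0.0205, although the labels do not tie the numbers to shared animals. In all, Irf1 passed under 5 of 12 alternatives, with a change of -0.73 to -0.65 over the 12. Among the 5 were DESeq2 (adjusted p = 0.049) and no filter on low counts (adjusted p = 1.33e-05). The remaining passes came from fits with 1 library left out, where a group holds a lone library. Irgm1 passed under 2 of 12 alternatives, the block and no filter on low counts (adjusted p = 0.0325).

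The remaining immunity-related GTPases of this class had the same direction. Iigp1 was 89.6, 115, 72.8 and 80.8 CPM (-0.42, SE 0.15), Igtp 28.6, 36.4, 20.6 and 26.8 CPM (-0.46, SE 0.21) and Irgm2 44.2, 33.3, 28.8 and 33.2 CPM (-0.32, SE 0.19). For Irgm2 the gap between the nearest libraries of the groups was small, and without IgG replicate 1 the changes were -0.11 for Irgm2, -0.63 for Igtp and -0.59 for Iigp1. Gbp7 did not overlap either, at 111, 113, 108 and 91.05 CPM (-0.17, SE 0.13), while Gbp2, Gbp3 and Gbp5 overlapped, at -0.10, -0.02 and 0.05.

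The makeup of the class moved with the Irf1 result. Cluster 25, where Irf1 was highest, gave 16.4% and 15% of the class's UMIs in IgG and 13.3% and 9.7% in Anti-CD8. Within cluster 18 both Anti-CD8 libraries were below both IgG libraries for Irf1 (75.6 and 63.8 against 83.2 and 131 CPM). Within cluster 25 Anti-CD8 replicate 2 (929 CPM) lay between the IgG libraries, and within cluster 17, the shallow one, it was the highest at 70.0 CPM. Without cluster 17 the fitted change for the class was -0.73 (adjusted p = 0.131). Irgm1 was lower in both Anti-CD8 libraries within clusters 17 and 18 and not within 25. The sum of the 13 T-cell markers was 25.6 and 54.7 CPM in IgG and 6.91 and 23.2 CPM in Anti-CD8, with 7 of the 13 lower without overlap and none at 0, and the 10 immediate early genes, which dissociation can induce, were at 9997 and 9291 CPM against 9899 and 7397 CPM, with 2 of the 10 lower without overlap. The part of these in the result was not tested.

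**Figure D5:**
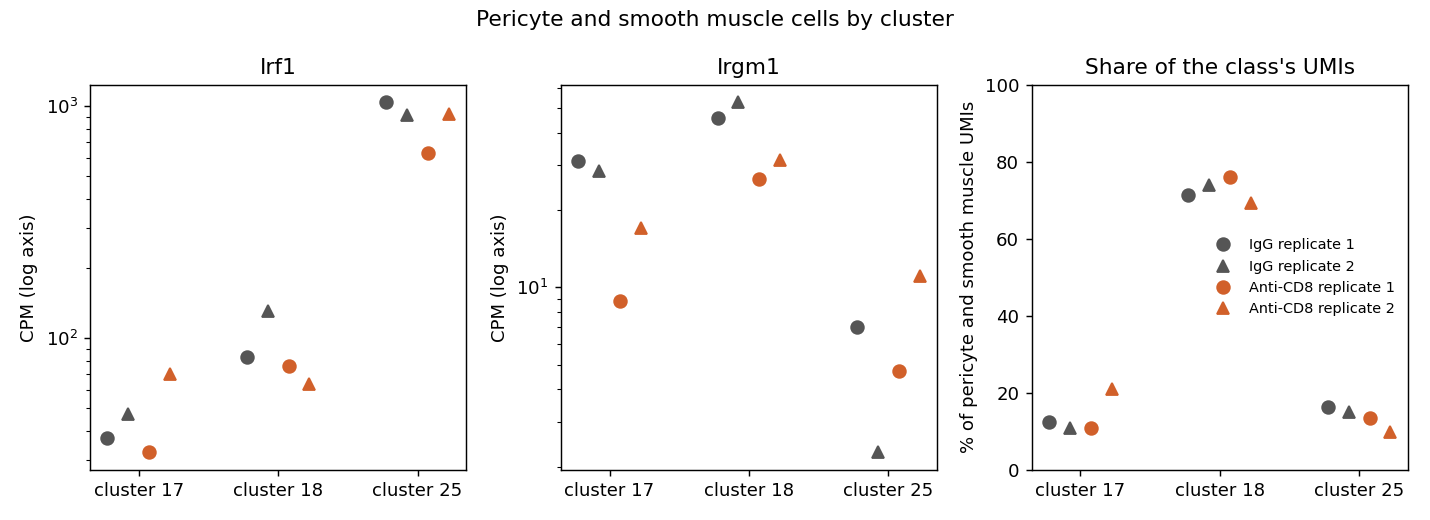
Irf1 (left) and Irgm1 (middle) by library in the 3 clusters of pericytes and smooth muscle (CPM, log axes), and the share of the class's UMIs that each cluster gave (right). Irf1 is highest in cluster 25 (630 to 1038 CPM), whose share was 16.4% and 15% in the IgG libraries against 13.3% and 9.7% with Anti-CD8.

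In Spp1-high myeloid cells all 4 guanylate-binding proteins were above 0. Gbp2 was 7.87, 8.99, 9.89 and 11.5 CPM (0.34, SE 0.11, adjusted p = 0.476) and Gbp5 6.80, 9.22, 9.86 and 11.8 CPM (0.44, SE 0.15, adjusted p = 0.476). Gbp3 was 4.09, 5.51, 5.93 and 6.22 CPM (0.34, SE 0.15, adjusted p = 0.585). The groups did not overlap for these, for Gbp7 (0.987, 2.38, 2.485 and 2.74 CPM) and for Iigp1, 5 of 9 members, against 19.0% of all 15717 genes tested; Irgm1 alone lay below, against 20.9%. IgG replicate 1 was the lowest library for each of the 4 Gbp genes, and without it the changes of Gbp5 and Gbp7 were 0.24 and 0.14. Without IgG replicate 2 the same changes were 0.67 and 1.40, and without Anti-CD8 replicate 1 Gbp5 was at 0.56. Gbp5 passed under 3 of 11 alternatives, 1 of them the replicate block (0.44, adjusted p = 0.026). The 8 endothelial markers summed to 178 and 141 CPM in IgG and 155 and 157 CPM in Anti-CD8 in these cells, with 5 of the 8 higher without overlap, 1 lower and none at 0, and their part in the Gbp values was not tested.

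In monocytes and macrophages Gbp7 was 4.595, 5.65, 12.2 and 9.50 CPM (1.05, SE 0.23, adjusted p = 0.719), 27 and 47 against 90 and 95 UMIs, and the groups did not overlap. It was the 1 member above in this class, against 17.4% of 12358 genes, while Irgm1 and Igtp were below, against 16.8%. Gbp2, Gbp3 and Gbp5 overlapped there, at 0.17, -0.03 and -0.24.

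In T cells the 4 guanylate-binding proteins lay at -0.12 to -0.79 and none passed. Gbp3 was 21.3, 16.6, 9.92 and 11.7 CPM (-0.79, SE 0.27, adjusted p = 0.246), and with Irgm1 it made 2 of 9 members below, against 21.0% of 10245 genes, with 0 above, against 21.4%. Igtp in T cells, its highest class, was 69.4, 29.4, 41.7 and 43.4 CPM (-0.14, SE 0.33), with the IgG libraries at both ends, and without IgG replicate 1 it was at 0.53. In ependymal cells Gbp5 was 15.6, 12.1, 9.05 and 8.21 CPM (-0.68, SE 0.26, adjusted p = 0.9997), the only member below without overlap in that class, against 14.0% of 14266 genes, with 0 above, against 13%. The T-cell class held fewer Cd8b1 UMIs in Anti-CD8, so its makeup differed between groups along with these values. The class joined cluster 9, led by Cd8b1, Themis and Nkg7, with cluster 19, led by Trdc, Scart1 and Il17a. Cluster 9 held 292, 591, 268 and 169 cells and cluster 19 held 22, 70, 104 and 65.

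In neurons Irf1 was 5.21, 9.61, 16.3 and 26.6 CPM (1.47, SE 0.35, adjusted p = 0.112), from 13, 40, 44 and 79 UMIs. It passed under 3 of 11 alternatives, among them the replicate block (1.53, adjusted p = 0.000771) and no filter on low counts (adjusted p = 0.000242). It was 2.04 without IgG replicate 2 and 1.07 without Anti-CD8 replicate 2. Anti-CD8 was the higher group for Irf1 and Gbp7, 2 of the 4 members tested, against 19.5% of 13958 genes, and the lower group for 0, against 18.3%. Markers of other cells moved with this: the 10 microglia markers summed to 216 and 264 CPM in IgG and 366 and 521 CPM in Anti-CD8, with 6 of the 10 higher without overlap, and the 10 immediate early genes to 845 and 877 CPM against 1944 and 1476 CPM, with 8 of the 10 higher and none of either list at 0. Their part in the neuronal Irf1 value was not tested.

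Differences of the antibody effect between classes were tested in fits with the library as a block. Between endothelial cells and microglia no member passed, where 0.0350% of 19974 genes did. Iigp1 came nearest: its change in endothelial cells was 1.62 above that in microglia (SE 0.36, adjusted p = 0.294). Irgm1 differed by 0.36 (SE 0.14, adjusted p = 0.838). Leaving out 1 library leaves a lone library in its group, so only effect sizes are given for those fits. The Iigp1 difference was 2.24 with IgG replicate 2 left out and 0.73 with IgG replicate 1 left out. It was 1.34 and 1.87 when Anti-CD8 replicates 1 and 2 were dropped in turn. Gbp5 stood at -0.63 without IgG replicate 2 and 0.20 without IgG replicate 1, beside -0.23 in the main fit. The Iigp1 difference was 0.37 (adjusted p = 0.938) without the interferon-high cluster of microglia.

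A further 6 pairs of classes, picked after their values were seen, gave no member that passed either. Irf1 differed by 2.17 between neurons and pericytes with smooth muscle (SE 0.33, adjusted p = 0.0668, where 0% of 15546 genes passed). It differed by 0.79 between Spp1-high myeloid cells and pericytes with smooth muscle (SE 0.14, adjusted p = 0.0694, 0.0113% of 17750 genes) and by 0.74 between endothelial cells and pericytes with smooth muscle (SE 0.13, adjusted p = 0.347, 0% of 14456 genes). Gbp7 differed by 1.25 between monocytes with macrophages and pericytes with smooth muscle (SE 0.22, adjusted p = 0.433, 0% of 14376 genes). Gbp5 differed by 1.13 between Spp1-high myeloid and ependymal cells (SE 0.28, adjusted p = 0.14, 0.113% of 19426 genes). Gbp3 differed by 1.15 between Spp1-high myeloid cells and T cells (SE 0.35, adjusted p = 0.193, 0.825% of 16602 genes).

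Among the ligand and receptor genes, Ifng, the cytokine itself, came from T cells for 83.1% of its 2016 UMIs and from NK cells for 7.4%. In T cells Ifng was 136, 148, 148 and 134 CPM (-0.01, SE 0.12), with overlap between the groups. In all cells together it was 2.76, 5.96, 3.10 and 2.26 CPM (-0.70, SE 0.38, adjusted p = 0.989). The T-cell class held 314, 661, 372 and 234 cells with 325, 752, 357 and 241 Ifng UMIs. NK cells, 9, 27, 66 and 106 in number, held 4, 28, 42 and 76 Ifng UMIs. All cells held 381, 840, 446 and 349, so the pooled NK share does not hold for each library. Of the 13 genes of this list, 1 passed in any class: Ifngr2, the signalling chain of the receptor, rose in T cells from 30.1 and 30.0 CPM to 59.5 and 56.2 CPM (0.95, SE 0.16, adjusted p = 0.0197), in a class where 1.43% of genes passed. It did not pass with DESeq2 (adjusted p = 0.0966), without doublet removal (0.40, adjusted p = 0.217), without Anti-CD8 replicate 1 (adjusted p = 0.0939) or without Anti-CD8 replicate 2 (adjusted p = 0.0515). Immediate early genes were higher in the same T cells, 9 of 10 without overlap, at 3134 and 3481 CPM against 4570 and 4586 CPM with none at 0, and their part was not tested. Cluster 19, led by Trdc, Scart1 and Il17a, gave 22, 70, 104 and 65 of these cells. The part of this makeup in the Ifngr2 value was not tested. Ifngr1, the binding chain, was 1090, 1073, 1414 and 1252 CPM in T cells (0.30, SE 0.10, adjusted p = 0.246).

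Receptor differences were small in microglia and endothelial cells. In microglia the log2 change of Ifngr2 was -0.07 (SE 0.05), with both Anti-CD8 libraries below both IgG libraries, while Ifngr1 overlapped (200.1, 193, 213.5 and 178 CPM). In endothelial cells Ifngr1 was at -0.08 (SE 0.09), without overlap, and Ifngr2 at -0.11 (SE 0.17), with overlap. None of these passed. Ifng itself in microglia was 0.63, 0.39, 0.15 and 0.07 CPM (-2.24, SE 0.44, adjusted p = 0.291), from 48, 27, 10 and 6 UMIs, beside the T-cell markers that were lower in the same cells.

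Of the 16 other interferon-inducible GTPases none passed in any class. In microglia 12 of the 13 tested were below 0, with a median of -0.57 beside 0 for all genes. In endothelial cells it was 11 of 12 with a median of -0.40, and in pericytes with smooth muscle 10 of 10 with a median of -0.37, beside 0.003. The counts were 9 of 11 in T cells, 8 of 11 in Spp1-high myeloid cells, 6 of 8 in monocytes and macrophages and 3 of 3 in ependymal cells. Without IgG replicate 1 they were 7 of 13 in microglia (median -0.05), 6 of 12 in endothelial cells (median -0.002) and 10 of 11 in pericytes with smooth muscle (median -0.30). Ifi47, an immunity-related GTPase chosen here after its values were seen, was 29.7, 32.2, 18.4 and 19.1 CPM in pericytes with smooth muscle (-0.73, SE 0.19, adjusted p = 0.745), and without IgG replicate 1 it was at -0.79. In neurons 0 of the 16 reached the level for a test.

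Of the 30 other interferon-gamma targets none passed in any class; 23 of 27 tested were below 0 in microglia (median -0.17) and 21 of 25 in endothelial cells (median -0.19), against 13 of 24 in monocytes and macrophages (median -0.03) and 5 of 17 in neurons (median 0.41). In the remaining classes it was 21 of 23 in pericytes with smooth muscle, 17 of 21 in T cells, 18 of 24 in Spp1-high myeloid cells and 13 of 18 in ependymal cells. Without IgG replicate 1 the count was 21 of 27 in microglia and 13 of 27 in endothelial cells. Cxcl10, a T-cell attracting chemokine, was 320, 225, 230 and 232 CPM in microglia (-0.24, SE 0.14) and 184, 14.2, 17.7 and 26.95 CPM in endothelial cells (-2.16, SE 0.79, adjusted p = 0.9996). IgG replicate 1 stood alone in endothelial cells, and without it Cxcl10 was at 0.64 there and at 0.04 in microglia. Cxcl9, a related chemokine, was 2.70, 4.32, 0.96 and 4.46 CPM in microglia (-0.35, SE 0.57).

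The list of the type I interferon response, which shares inducers with the members, had 29 genes. In microglia 28 of 28 tested were below 0, with a median of -1.16. Of these, 5 were lower without overlap, against 21.5% of all genes tested, and 0 were higher, against 20.2%. Ifit3, an antiviral protein, was 89.4, 10.2, 9.65 and 12.5 CPM (-2.17, SE 0.80, adjusted p = 0.515) and Isg15, a ubiquitin-like modifier, 123, 53.8, 46.2 and 66.4 CPM (-0.65, SE 0.34). Rsad2 was 42.8, 9.93, 5.79 and 9.65 CPM (-1.77, SE 0.59, adjusted p = 0.491). All 3 had IgG replicate 1 far above the rest, and without it Ifit3 was at 0.13, Isg15 at 0.07 and Rsad2 at -0.36, with 14 of the 28 below 0 and a median of 0.002. The median was -1.18 in T cells, -0.37 in endothelial cells, -0.22 in pericytes with smooth muscle and 0.46 in neurons. In T cells 14 of 23 were lower without overlap, against 21.0% of genes, and 0 higher, against 21.4%. In pericytes with smooth muscle 11 of 25 were lower, against 16.3%, and 0 higher, against 16.4%. Without IgG replicate 1, 19 of 23 were below 0 in T cells and 22 of 26 in pericytes with smooth muscle. It was 20 of 28 in Spp1-high myeloid cells and 13 of 28 in monocytes and macrophages. The count was 7 of 26 in endothelial cells, 8 of 20 in ependymal cells and 4 of 16 in neurons. In T cells 1 gene of the list passed: Ifi27l2a fell from 555 and 352 CPM to 151 and 250 CPM (-1.18, SE 0.24, adjusted p = 0.0455). It did not pass with DESeq2 (adjusted p = 0.344), with the replicate block (adjusted p = 0.0514), without Anti-CD8 replicate 1 (-0.86, adjusted p = 0.144), without doublet removal (adjusted p = 0.1235), with a stricter cell filter (adjusted p = 0.059) or with the members kept among the variable genes (adjusted p = 0.0595).

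In classes too small for a test the members were read from few UMIs. NK cells numbered 9, 27, 66 and 106, and their summed level of the 9 genes was 696, 283, 290 and 264 CPM from 47, 77, 148 and 270 UMIs. Fibroblasts, 5 to 16 cells per library, held 175, 438, 474 and 487 CPM. Neutrophils, 1 to 6 cells per library, held 1 to 4 member UMIs.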

How the data were processed

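The authors deposited whole-number UMI counts for each gene in each barcode, not normalised. Per the submitters' processing notes, Cell Ranger 7.1.0 and GRCm39 were used; which annotation, and whether introns counted, is not given in the sources used here. Barcodes with 300 genes or more and at most 20% mitochondrial UMIs were kept, and the top Scrublet scores (0.8% of a library per 1000 cells) were removed as doublets, 332 to 562 per library. Clustering used 3000 variable genes and 30 components at Leiden resolution 1 (scanpy 1.11.5, leidenalg 0.10.2), without integration of the libraries. Most classes were named at a mean log2 fold of 1.5 or more over their markers and 1 above the next class. Microglia and Spp1-high myeloid cells were not. Among the remaining clusters, those with at least 5 microglia markers at 2 times or more the macrophage level were named microglia. Others with a positive mean log2 fold over the Spp1-high markers were named Spp1-high myeloid cells. Thresholds were set after the data were seen. The unnamed clusters entered only the sums over all cells.

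Sums per class and library were tested with edgeR 4.0.16 (quasi-likelihood, TMM, its expression filter, 2 libraries against 2); the standard error is the absolute log2 fold change over the square root of F. The threshold for a call was an adjusted p of 0.05. All adjusted p-values are from this test unless DESeq2 1.42.0 is named. The code was tested on simulated data. Every member is accounted for in each class; library values are given in microglia, endothelial cells and each member's highest class, and others were added after their values were seen. Genes alike in pattern were ranked on log2(CPM + 1) among genes at 5 CPM or more. Thinned shares left out cells under 2000 UMIs. The members and all lists were chosen with earlier results of these data known. Marker sums beside results and the immediate early genes were added after values were seen. The values of 1 gene named for description are not reported here.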

Additional observations from a re-analysis of the deposited data

How the results depend on the processing

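No member change reversed its direction where it was named at an unadjusted p under 0.05. The groups did not overlap for any of these 19 single-gene results, so leaving out 1 library could hardly reverse them. Their kept direction is therefore no sign of stability. None of the 19 passed in the main test, and 10 passed under at least 1 alternative. Leaving out each library in turn gave these numbers of members past the threshold: 0 to 2 in Spp1-high myeloid cells, 0 to 5 in T cells and in endothelial cells, 0 to 3 in microglia, 0 to 1 in neurons and in pericytes with smooth muscle, and 0 to 2 for the difference between endothelial cells and microglia. For pathway genes the numbers were 0 to 2 in all cells, 0 to 16 in Spp1-high myeloid cells, 1 to 40 in T cells, 0 to 22 in endothelial cells, 0 to 9 in ependymal cells, 0 to 41 in microglia, 0 to 2 in monocytes and macrophages, 0 to 4 in neurons and 0 to 2 in pericytes with smooth muscle. Most of the added calls came without IgG replicate 2, which leaves the interferon-rich IgG replicate 1 as the lone control, assumed to vary like the other group. Without a filter on low counts, members past the threshold were 1 in T cells, 3 in endothelial cells, 3 in microglia, 1 in monocytes and macrophages, 1 in neurons and 2 in pericytes with smooth muscle, and pathway genes 31, 15, 44, 5, 6 and 1 in the same classes and 5 in ependymal cells. With the replicate block, members were 1 in Spp1-high myeloid cells, 1 in neurons and 2 in pericytes with smooth muscle, and pathway genes 7, 4 and 1 there, 2 in ependymal cells and 1 in monocytes and macrophages; the labels do not tie the numbers to shared animals, and deviations of same-numbered libraries correlated at -0.10 to 0.20. DESeq2 gave 2 pathway genes in all cells and 1 member in pericytes with smooth muscle. In T cells the 2 pathway genes became 0 without doublet removal and 1 with a stricter cell filter or with the members kept among the variable genes. The cause of these differences was not tested. The share of all genes that passed under each alternative is not given here. A count above therefore cannot be told from a general rise in calls. The Anti-CD8 minus IgG share of cells with a member UMI, in percentage points, became -4.296 in Spp1-high myeloid cells and -5.406 in monocytes and macrophages without thinning, and 2.822 in the latter and 5.852 in endothelial cells at 1000 UMIs. At Leiden resolution 2 no class of monocytes and macrophages formed.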
